A study of Arabidopsis thaliana with 8 samples.

Results

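This comparison concerns the steady-state mRNA of dark-grown Arabidopsis seedlings before and after their first exposure to light. Wild-type Arabidopsis thaliana of the Columbia-0 ecotype, carrying no transgene or mutation that the labels name, spent 4 days in darkness on plates of Murashige-Skoog salts. The dark group was collected without light (0 h) and the light group after 4 h of white light, so both groups share the 4 days of dark growth. Each group holds 2 libraries, numbered repeat 1 and repeat 2, and these 4 mRNA libraries were chosen by their labels from the 8 libraries of the study. The other 4 are ribosome-protected mRNA of the same conditions. They entered the filter on low counts, the scaling and the estimate of the spread, and a side-by-side reading at the end. Whole seedlings were sampled, so fewer cells of a type and less RNA per cell cannot be told apart.

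A seedling that germinates in the dark puts its reserves into stem elongation, keeps an apical hook and holds its plastids as etioplasts. Light acts through phytochromes, cryptochromes and phototropins. These curb the COP1/SPA ubiquitin ligase and the PIF transcription factors, and factors such as HY5 then accumulate. The cotyledons open, etioplasts become chloroplasts and the stem slows its growth, with auxin, ethylene, gibberellin and brassinosteroid acting on the growing cells.

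Reads in coding sequences (CDS) numbered 30997341 to 37245819 per mRNA library, and levels are given as CPM, the reads of a gene per 1e6 coding reads after scaling by TMM factors of 1.02 to 1.26. Of 27415 genes listed, 19823 were tested, with the quasi-likelihood test of edgeR, Benjamini-Hochberg adjustment over all of them and a threshold of 0.05. Changes are log2 light minus dark with a standard error derived from the test (n = 2 libraries per group throughout). This error is the absolute change divided by the square root of the test's F statistic. Paired values are in the order repeat 1, repeat 2. Nothing in the labels ties a repeat to its own culture. The p-values therefore cover the spread among these libraries, which may be technical. The repeats stood apart in the share of CDS reads from plastid-encoded genes. Repeat 1 had 2.59% without and 4.54% with light, and repeat 2 only 0.253% and 0.369%. The widest 95% Wilson interval, 4.53 to 4.55% for light repeat 1, covers counting error only. Markers of the dark-grown state were present at the start: PORA, the light-dependent chlorophyll synthesis enzyme of etioplasts, had 83.3 and 563 CPM in darkness and 4.31 and 8.39 CPM with light. PHYA, the phytochrome that accumulates in darkness, had 1746 and 963 CPM in darkness and 519.7 and 338 CPM with light. Neither passed without the repeat as a block (adjusted p = 0.0815 and 0.0950), and both fell with it (4.12e-04 and 5.29e-04).

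After 4 h of light 662 mRNAs rose and 285 fell, 4.78% of the genes tested (3.34% up and 1.44% down). The median change was 2.29 among the genes that rose and -2.23 among those that fell, and the smallest change called was 0.91. Changes beyond 4 on the log2 scale were found for 101 of the risen genes and 40 of the fallen ones. The median over all genes tested was 0.01. Every called gene moved the same way in both repeats and had dark and light CPM ranges that did not overlap, which the calls themselves favour, and 46.0% of all tested genes had such separate ranges. With the repeat number as a block, 3838 genes rose and 2821 fell (33.6% of those tested, 19.4% and 14.2% by direction), and these held all 947. DESeq2 without a block called 1326 up and 908 down (11.3% in all, 6.69% and 4.58% by direction), again with all 947 among them. The 4 mRNA libraries alone gave 0 calls in edgeR without the block (3194 genes at an unadjusted p under the threshold) and 6716 with it (34.5%). Leaving out 1 mRNA library left 3 calls (dark repeat 1), 57 (dark repeat 2), 173 (light repeat 1) or 100 (light repeat 2), and leaving out either ribosome-protected light library left 454.

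The size of the light response was much like the distance between repeats. Over all genes tested the median absolute log2 change with light was 0.43 in repeat 1 and 0.42 in repeat 2, while the median absolute difference between repeats was 0.49 in the dark and 0.44 after light. A rise of 2-fold or more was seen for 2654 genes in repeat 1 and 2520 in repeat 2. Of these, 1920 rose 2-fold in both, which is 72.3% of the first set, 76.2% of the second and 9.69% of the genes tested. A 2-fold fall was seen for 1388 genes in repeat 1 and 1695 in repeat 2, of which 1024 were shared (73.8% and 60.4%, and 5.17% of the genes tested). Only 7 genes rose 2-fold in repeat 1 and fell 2-fold in repeat 2, and 4 did the opposite.

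**Figure D1:**
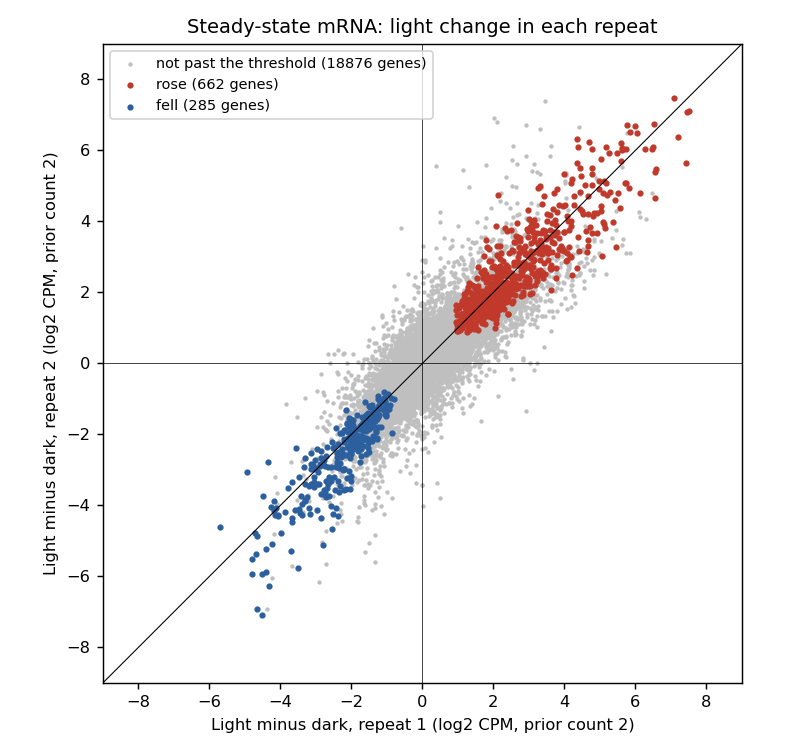
Light minus dark on the log2 CPM scale in repeat 1 (x axis) and repeat 2 (y axis) for each of the 19823 genes tested, with the 662 genes that rose in red, the 285 that fell in blue and the line of equal change in black. Called genes lie to the upper right and lower left, away from the origin.

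The largest rises among called genes of at least 10 CPM on average included genes of the photosystem II antenna and of plastid redox and lipid metabolism. AT5G42760, annotated as a leucine carboxyl methyltransferase, went from 0.0890 and 0.166 CPM in darkness to 22.7 and 43.1 CPM with light (7.93 ± 0.61, adjusted p = 0.00590). Its dark level rests on 3 and 7 reads. LHB1B1 (AT2G34430, LHCB1.4), which binds chlorophyll in the antenna of photosystem II, changed by 7.27 ± 0.79 (adjusted p = 0.00862). The antenna copy CAB2 (AT1G29920, LHCB1.1) rose from 3.29 and 6.78 CPM in darkness to 590.3 and 937 CPM with light (7.24 ± 0.68, 0.00689), and CAB3 (AT1G29910, LHCB1.2) from 3.501 and 14.6 CPM in darkness to 527 and 1218 CPM with light (6.59 ± 1.01, 0.0209). For each of these antenna genes both light values lay far above both dark values. The coding sequences of CAB2 and CAB3, both 804 bases, are identical at 95.7% of positions, and each shares 96.1 to 96.4% with CAB1. The division of reads among these copies is therefore uncertain. LHB1B1 (801 bases) and LHB1B2 (798 bases, described below) were not compared, as only sequences of equal length were. Whether the same doubt holds for them was not checked. LHCB2.2, from the sister family of the same antenna trimer, changed by 6.29 ± 0.49 (0.00590).

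Outside the antenna, NDA1, an alternative NAD(P)H dehydrogenase of mitochondria, rose from 0.208 and 0.143 CPM in darkness to 25.97 and 23.4 CPM with light (7.11 ± 0.44, adjusted p = 0.00466). FBA5, a fructose-bisphosphate aldolase, rose from 0.326 and 0.214 CPM in darkness to 36.4 and 19.9 CPM with light (6.69 ± 0.62, 0.00689). THI2.2, a thionin of the small antimicrobial peptides, rose from 0.148 and 0.357 CPM in darkness to 14.8 and 38.9 CPM with light (6.67 ± 0.86, 0.0136). In all of these the dark level was under 1 CPM in both repeats. The pectin lyase-like gene AT1G60590 ended at nearly equal light levels, going from 0.178 and 0.785 CPM in darkness to 43.6 and 43.4 CPM with light (6.45 ± 0.86, 0.0148). MSRB6 repairs oxidised methionine in proteins and rose from 2.94 and 2.31 CPM in darkness to 191 and 247 CPM with light (6.38 ± 0.41, 0.00466). FADA (AT4G27030, FAD4), which desaturates a fatty acid of plastid phosphatidylglycerol, rose from 0.860 and 1.12 CPM in darkness to 83.8 and 78.6 CPM with light (6.35 ± 0.28, 0.00352). The thioredoxin-like plastid protein CDSP32 changed by 6.02 ± 0.39 (0.00466). FADA stayed past the threshold with any 1 of the 8 libraries left out (adjusted p of 0.0162 to 0.0468). The other rises named here lost the call without dark repeat 1. CAB3, AT1G60590, THI2.2 and FBA5 lost it without other libraries too.

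The 12 largest falls included a transcription factor, a protein kinase, enzymes, and proteins known only by a domain. GRF7, a growth-regulating transcription factor, fell from 11.2 and 69.1 CPM in darkness to 0.412 and 0.429 CPM with light (-6.56 ± 1.36, adjusted p = 0.0487), with a dark level that was much higher in repeat 2. CYP96A5, a cytochrome P450, fell from 18.0 and 23.8 CPM in darkness to 0.634 and 0.119 CPM with light (-5.83 ± 0.84, 0.0175). ACS5 makes ACC, the precursor of ethylene, and fell from 18.8 and 47.9 CPM in darkness to 0.603 and 0.715 CPM with light (-5.65 ± 0.65, 0.01000). In all of these both light libraries were under 1 CPM. SNRK2.5, a protein kinase of a family that responds to osmotic stress, changed by -5.39 ± 0.76 (0.0163), and AT4G11610, a C2-domain protein, by -5.35 ± 0.61 (0.00982). The Rossmann-fold oxidoreductase AT5G02540 fell from 58.8 and 80.9 CPM in darkness to 2.03 and 1.69 CPM with light (-5.23 ± 0.41, 0.00604), and the ARM-repeat protein AT3G18530 from 25.8 and 35.4 CPM in darkness to 1.14 and 0.524 CPM with light (-5.21 ± 0.85, 0.0253). The EF-hand protein AT2G34020 changed by -5.198 ± 0.87 (0.0270).

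GH9B13, a glycosyl hydrolase of the endoglucanase family, fell from 129 and 148 CPM in darkness to 5.99 and 3.91 CPM with light (-4.81 ± 0.37, adjusted p = 0.00590). The heavy-metal-domain protein AT5G24580 fell from 59.0 and 74.7 CPM in darkness to 2.19 and 2.62 CPM with light (-4.79 ± 0.29, 0.00466). It alone of the 12 largest falls kept its call with any 1 library left out. The C1-domain protein AT2G19660 fell from 65.2 and 58.8 CPM in darkness to 4.06 and 2.05 CPM with light (-4.35 ± 0.45, 0.00770). GH3.3 conjugates auxin to amino acids and fell from 90.8 and 29.0 CPM in darkness to 2.85 and 3.41 CPM with light (-4.25 ± 0.73, 0.0291). GH3.3 and AT2G19660 were lower in the dark in repeat 2 than in repeat 1, and the other 10 of the 12 largest falls were higher. In total 13 genes were under 1 CPM in both dark libraries and at 10 CPM or more in both light libraries, among them AMT1;2, NEET and WRR4, and 3 did the reverse, namely CYP96A5, GRF7 and ACS5. All 16 were called, against 4.78% of the genes tested, and bounds this far apart favour a call.

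**Figure D2:**
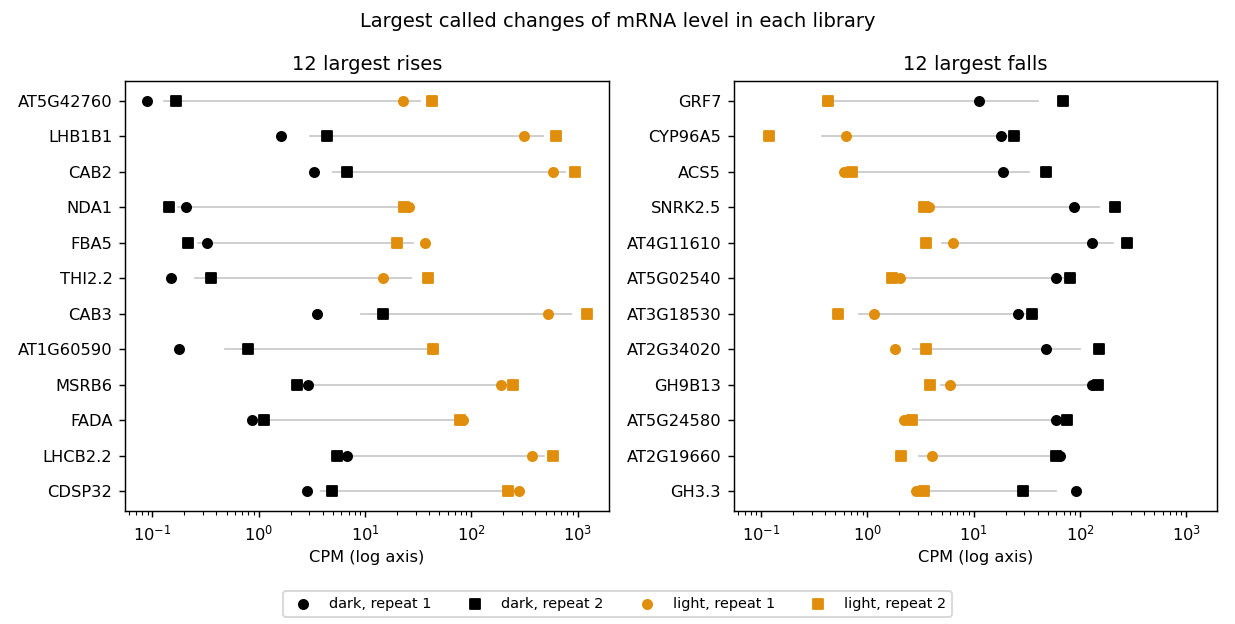
CPM on a log axis in each of the 4 mRNA libraries for the 12 largest rises (left) and the 12 largest falls (right) among called genes of at least 10 CPM on average, with dark libraries in black, light libraries in orange, circles for repeat 1, squares for repeat 2 and grey lines between group means. Dark and light values do not overlap for any of the 24 genes.

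The upstream sequences of the 3 largest rises and the 3 largest falls are given because these genes bracket the response. Each runs 5′ to 3′ and holds the 250 bases before the gene start annotated by RefSeq on TAIR10.1. Capitals mark any match, on either strand, to CACGTG (the G-box, which bZIP and bHLH factors bind), GATAAG (the I-box), TGTCTC (an auxin response element) or AATATCT (the core of the evening element).
AT5G42760, chr5:17148558-17148807, plus strand: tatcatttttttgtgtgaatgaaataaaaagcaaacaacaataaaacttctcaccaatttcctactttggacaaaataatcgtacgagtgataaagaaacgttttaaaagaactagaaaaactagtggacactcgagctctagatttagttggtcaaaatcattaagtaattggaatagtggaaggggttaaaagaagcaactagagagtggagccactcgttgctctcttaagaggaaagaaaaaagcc
LHB1B1, chr2:14524357-14524606, plus strand: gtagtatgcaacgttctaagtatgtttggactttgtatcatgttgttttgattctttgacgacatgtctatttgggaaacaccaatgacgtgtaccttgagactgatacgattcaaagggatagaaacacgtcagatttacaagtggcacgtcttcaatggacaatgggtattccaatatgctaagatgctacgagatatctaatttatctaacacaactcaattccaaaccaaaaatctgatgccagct
CAB2, chr1:10475970-10476219, minus strand: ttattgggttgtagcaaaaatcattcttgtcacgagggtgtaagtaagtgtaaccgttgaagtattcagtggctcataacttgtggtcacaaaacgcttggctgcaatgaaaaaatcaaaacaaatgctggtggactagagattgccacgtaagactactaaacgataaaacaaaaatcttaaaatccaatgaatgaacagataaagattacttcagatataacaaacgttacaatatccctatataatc
GRF7, chr5:21793927-21794176, plus strand: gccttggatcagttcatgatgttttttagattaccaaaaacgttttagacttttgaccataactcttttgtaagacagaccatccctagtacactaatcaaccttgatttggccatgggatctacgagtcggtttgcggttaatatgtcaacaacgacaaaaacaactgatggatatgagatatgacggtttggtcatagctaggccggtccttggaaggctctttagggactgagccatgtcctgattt
CYP96A5, chr2:9341181-9341430, plus strand: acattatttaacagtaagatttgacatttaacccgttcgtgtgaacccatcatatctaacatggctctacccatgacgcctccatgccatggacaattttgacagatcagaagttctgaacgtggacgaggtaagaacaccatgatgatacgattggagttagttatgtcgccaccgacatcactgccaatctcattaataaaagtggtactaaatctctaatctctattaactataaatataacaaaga
ACS5, chr5:26332813-26333062, minus strand: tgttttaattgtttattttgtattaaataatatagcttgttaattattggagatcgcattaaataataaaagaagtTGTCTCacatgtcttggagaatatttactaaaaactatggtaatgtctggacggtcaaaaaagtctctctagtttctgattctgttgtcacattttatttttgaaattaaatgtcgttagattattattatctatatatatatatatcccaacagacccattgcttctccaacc
Only ACS5 held a match, 1 TGTCTC that starts 174 bases before the gene start, and the other 5 windows held none of these exact letters. The window of GRF7 also lies in the annotated locus AT5G08015. Among 19673 nuclear tested genes, windows of this length held CACGTG in 7.53%, GATAAG in 12.5%, TGTCTC in 10.6% and AATATCT in 10.11%. The 662 risen genes held CACGTG in 11.3% and GATAAG in 16.9% of windows, TGTCTC in 11.3% and AATATCT in 11.5%. In the 285 fallen genes the shares were 7.37%, 11.9%, 13.0% and 7.72%. These are descriptions of letters near annotated starts, without a test.

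All but AT5G24580 of the genes with the smallest p-values rose. FADA had the smallest p (adjusted p = 0.00352), followed at a shared adjusted p of 0.00466 by NDA1, MSRB6, CDSP32, AT5G24580 and 4 genes not named above. DIR1, a lipid transfer protein of systemic resistance, rose from 5.13 and 5.45 CPM in darkness to 180.1 and 195 CPM with light (5.15 ± 0.29). The alpha/beta-hydrolase AT4G12830 rose from 0.682 and 1.19 CPM in darkness to 34.9 and 35.2 CPM with light (5.21 ± 0.34). CSLB04, a cellulose synthase-like protein, rose from 3.35 and 4.00 CPM in darkness to 41.6 and 47.6 CPM with light, and AT3G01060, annotated as a lysine-tRNA ligase, changed by 3.41 ± 0.22. The repeats of DIR1 and AT3G01060 were nearly equal within each condition.

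Rises were more frequent among abundant mRNAs, while the share of falls varied little. When tested genes were cut into 4 equal bins by mean CPM, 6.32% were called in the highest bin and 2.54% in the lowest. The median absolute log2 change was 0.38 and 0.58 in these bins. From the lowest bin to the highest, 1.41, 2.74, 4.34 and 4.86% of genes rose and 1.13, 1.55, 1.61 and 1.45% fell. Risen genes went from 1.41% and 1.90% of the CPM of tested genes in the dark to 9.67% and 12.1% after light. Fallen genes went from 2.21% and 2.998% to 0.514% and 0.532%. The direction of the called genes was fixed by the test, so these shares describe only how much of the pool was involved. Neighbouring tested genes were both called up in 36 of 19669 adjacent pairs, both down in 13 and in opposite directions in 20. The numbers expected from 3.34% up and 1.44% down over all genes tested were not computed, so these counts are only a description.

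**Figure D3:**
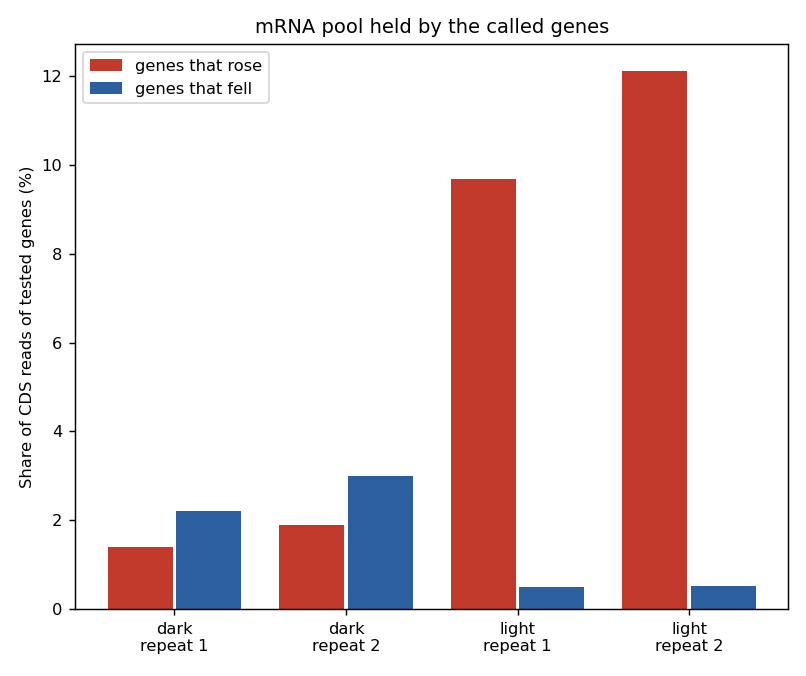
Share of the CPM of tested genes, in percent, held by the 662 genes that rose (red) and the 285 that fell (blue) in each of the 4 mRNA libraries. The red bars stand at 1.41 and 1.90% in the dark and at 9.67 and 12.1% after light, the blue bars at 2.21 and 2.998% and at 0.514 and 0.532%.

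The mRNAs that gained most CPM included those of Rubisco, its activase and the antenna, beside a myrosinase, a photorespiratory enzyme and plastid-encoded loci. RCA, the activase of Rubisco, gained most, from 187 and 432 CPM in darkness to 6385 and 6829 CPM with light (4.42 ± 0.69, adjusted p = 0.0223). LHB1B2 (AT2G34420, LHCB1.5) rose from 117 and 77.4 CPM in darkness to 3199 and 2540.5 CPM with light (4.88 ± 0.49, 0.00739), and LHCB3 from 61.9 and 88.8 CPM in darkness to 2252 and 3016 CPM with light (5.13 ± 0.48, 0.00689). The other called gains were GLDP1, the P-protein of glycine decarboxylase, and LHCA4 of the photosystem I antenna (3.91 ± 0.38, 0.00712). Of the 10 largest gains 5 were called, or 8 with the block, and the 10 made up 12.4% of all CPM gained. LHCB5 had 113 and 300.0 CPM in darkness and 1900.1 and 2874 CPM with light and missed the threshold (3.53 ± 0.76, 0.0549, or 1.17e-04 with the block). RBCS1A, one of several near-identical Rubisco small subunit genes, had 384 and 1677 CPM in darkness and 3262 and 4696 CPM with light (0.386, or 0.0103 with the block). PYK10, a myrosinase-type glucosidase of the ER bodies, had the next largest gain after RCA, with 2936 and 8422 CPM in darkness and 5266 and 14430.0 CPM with light (0.729, or 0.0191 with the block), and was higher in repeat 2 under both conditions. The plastid-encoded loci ATCG00270 (2299.9 and 109.8 CPM in darkness and 8009 and 179.6 CPM with light) and ATCG00280 (1944 and 228 CPM in darkness and 5891 and 342 CPM with light) were far lower in repeat 2 and did not pass (0.678 and 0.636), also with the block.

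The mRNAs that lost most CPM were abundant before light, and 8 of the 10 fell with the block. TIP2 (AT3G26520), an aquaporin of the vacuole membrane, had the highest mean level in the dark and lost most, with 12065 and 7470.2 CPM in darkness and 7592 and 5412 CPM with light (-0.59 ± 0.49, adjusted p = 0.615). CAT3, a catalase, had 7837 and 5942 CPM in darkness and 4071 and 3389.9 CPM with light (-0.89 ± 0.38, 0.280). In dark repeat 2 PYK10 was above TIP2. Without the block PCK1, which turns carbon from stored lipid toward sugar, was the 1 call among the 10 largest losses, falling from 1313 and 1782 CPM in darkness to 234 and 194 CPM with light (-2.85 ± 0.41, 0.0175). The beta-xylosidase BXL1 (-0.53 ± 1.11), the membrane-trafficking protein PATL1 (-0.80 ± 0.67), the peroxidase AT2G37130 (-1.08 ± 0.39) and the beta-galactosidase BGAL4 (-1.51 ± 0.86) did not pass. Neither did the aquaporins PIP1C (-1.10 ± 0.64) and DELTA-TIP (-1.13 ± 0.55), nor ICL, isocitrate lyase of the glyoxylate cycle, at -2.07 ± 0.98; adjusted p lay between 0.203 and 0.880 for these 7. With the block TIP2 (0.105) and BXL1 (0.0546) still missed the threshold, and the other losses passed it. PIP3, DIN10 and PIP1B, also among the most-read mRNAs of a condition, were at -0.65 ± 0.45, -0.72 ± 0.99 and 0.42 ± 0.43 and did not pass. PIP3 and DIN10 passed with the block (0.0336 and 0.0207). Per kb of coding sequence the mean level of TIP2 was 12818 CPM in the dark and 8533 after light, that of RCA 217 and 4636, and that of RBCS1A 1897 and 7327.

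The gene lists below stand beside 3.34% up and 1.44% down over all genes tested, or 19.4% and 14.2% with the block. The median over all genes was 0.01, so about as many were fitted higher as lower. No list was tested as a set. Of 14 photoreceptor genes only CRY3, an organelle cryptochrome-DASH, rose (3.56 ± 0.36, adjusted p = 0.00739). Its level went from 4.12 and 5.64 CPM in darkness to 42.4 and 72.8 CPM with light. The median of the 14 was 0.13, and with the block 4 rose and 2 fell. Among 9 partners RUP2, which returns the UV-B receptor to its inactive form, rose from 3.11 and 2.996 CPM in darkness to 61.8 and 80.0 CPM with light (4.53 ± 0.30, 0.00481). RPT2, which works with phototropins in bending, rose from 90.6 and 29.4 CPM in darkness to 862 and 908 CPM with light (3.88 ± 0.70, 0.0324). FHL, which carries phytochrome A into the nucleus, fell from 6.70 and 8.99 CPM in darkness to 1.01 and 0.905 CPM with light (-3.03 ± 0.35, 0.01000). The median of these partners was -0.09 (4 up and 2 down with the block). Of 13 genes for COP1, the SPA proteins, the COP9 signalosome and DET1, 3 rose and 0 fell, with a median of 0.20 (5 up with the block). COP1, the ubiquitin ligase itself, rose from 34.8 and 32.6 CPM in darkness to 68.4 and 69.7 CPM with light, and its partner SPA3 from 19.5 and 17.5 CPM in darkness to 87.2 and 87.9 CPM with light (2.24 ± 0.30, 0.0148). SPA4 changed by 1.52 ± 0.31 (0.0485).

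Of 15 PIF and related HLH genes 1 rose and 5 fell (median -0.39; 3 up and 7 down with the block). PIF7, a phytochrome-interacting factor of the shade response, was the riser, from 0.742 and 0.285 CPM in darkness to 18.23 and 14.1 CPM with light (4.98 ± 0.56, adjusted p = 0.00956). PAR1, an atypical HLH protein that holds back shade growth, fell from 25.5 and 36.8 CPM in darkness to 4.85 and 3.597 CPM with light (-2.88 ± 0.39, 0.0148). Its relative PAR2 fell from 34.7 and 40.1 CPM in darkness to 6.37 and 5.19 CPM with light (-2.69 ± 0.45, 0.0263). PRE1, a small HLH protein that promotes elongation, changed by -2.15 ± 0.38 (0.0317). The other fallen genes were PRE5 and IBH1, and the list thus holds fallen members known to promote growth and to restrain it. Of 22 genes for HY5, HYH and B-box proteins 9 rose and 1 fell (median 1.56; 12 up and 5 down with the block). Besides those described next, HY5, BBX14, BBX15, BBX18, LZF1 and BBX30 rose.

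HYH, the close relative of HY5, rose from 0.504 and 1.09 CPM in darkness to 18.17 and 35.0 CPM with light (5.04 ± 0.64, adjusted p = 0.0128). STH (AT2G31380, BBX25), a B-box protein that restrains HY5, rose from 1.96 and 0.713 CPM in darkness to 52.8 and 59.1 CPM with light (5.40 ± 0.51, 0.00689) and kept its call with any 1 library left out (0.0201 to 0.0468). BBX32, another B-box regulator, had 2 and 3 reads in the dark and 247 and 572 after light (0.00739), too few in the dark for a fold. BBX17 was the only B-box gene to fall, from 56.1 and 49.2 CPM in darkness to 6.06 and 4.43 CPM with light (-3.33 ± 0.32, 0.00692). Of 18 clock genes ELF4, of the evening complex, alone rose, from 6.38 and 3.88 CPM in darkness to 32.3 and 23.2 CPM with light; the list median was 0.67, with 10 up and 1 down under the block.

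Of 12 regulators of greening and of plastid transcription 4 rose and 0 fell, with a median of 1.35 and 11 of 12 fitted higher (11 up with the block). CGA1, a GATA factor that promotes chloroplast growth, rose from 0.148 and 0.0951 CPM in darkness to 6.12 and 6.88 CPM with light (5.70 ± 0.46, adjusted p = 0.00619), on 5 and 4 dark reads. SIGE (AT5G24120, SIG5), a light-responsive sigma factor of the plastid RNA polymerase, rose from 3.98 and 1.43 CPM in darkness to 201 and 101 CPM with light (5.81 ± 0.74, 0.0133). The sigma factors SIG2 (1.81 ± 0.27, 0.0205) and SIG4 (1.38 ± 0.28, 0.0449) changed less. The dark and light values of CGA1 and SIGE lay far apart in both repeats.

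All 12 carotenoid and xanthophyll genes were fitted higher, 3 rose, and the median was 1.74 (12 up with the block). ABA1, zeaxanthin epoxidase, rose from 62.7 and 43.0 CPM in darkness to 325 and 248 CPM with light (2.44 ± 0.36, adjusted p = 0.0184), and NPQ1, the de-epoxidase that works against it, from 14.7 and 19.9 CPM in darkness to 50.5 and 51.1 CPM with light (1.55 ± 0.31, 0.0434). CYP97A3, a carotene hydroxylase, changed by 3.82 ± 0.80 (0.0497). In the plastid isoprenoid pathway, which feeds carotenoids and the chlorophyll tail, GGPS1 (1.46 ± 0.26, 0.0308) was 1 riser of 9, and the median was 1.41 (7 up with the block). Of 12 early light-induced and photoprotective genes 4 rose, with a median of 2.40 (11 up with the block). OHP2, a one-helix protein of photosystem assembly, rose from 21.0 and 18.6 CPM in darkness to 135 and 128 CPM with light (2.73 ± 0.23, 0.00619). The related OHP (3.45 ± 0.67, 0.0399), PGR5-LIKE A of cyclic electron flow (3.35 ± 0.48, 0.0173) and STN7, the kinase of state transitions (2.43 ± 0.46, 0.0388), also rose.

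Of 17 genes for plastid redox control and peroxide removal 5 rose and 0 fell, with a median of 1.69 and all 17 fitted higher (15 up with the block). Besides CDSP32 and MSRB6, described above, TRXF2, a thioredoxin that activates Calvin cycle enzymes, rose from 6.23 and 11.01 CPM in darkness to 49.3 and 52.4 CPM with light (2.56 ± 0.40, adjusted p = 0.0228). PMSR4, a methionine sulfoxide reductase, rose from 36.5 and 36.6 CPM in darkness to 129.8 and 136 CPM with light (1.86 ± 0.31, 0.0267). Of 30 genes for plastid chaperones, import, sorting and proteases 8 rose and 0 fell, with a median of 1.21 (24 up with the block). TIC55-II, a translocon component of the inner envelope, rose from 10.3 and 12.4 CPM in darkness to 59.8 and 59.3 CPM with light (2.39 ± 0.24, 0.00756). The locus annotated CAO (AT2G47450), a component of the chloroplast signal recognition particle that delivers antenna proteins, rose from 42.7 and 39.6 CPM in darkness to 166 and 173 CPM with light (2.04 ± 0.23, 0.00927). The proteases FTSH1 (2.50 ± 0.31, 0.0115) and DEG1 (1.66 ± 0.20, 0.0112), which remove damaged photosystem proteins, rose too.

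All 11 photorespiratory genes tested were fitted higher and 4 rose, with a median of 2.15 (10 up with the block). GGT1, glutamate:glyoxylate aminotransferase of peroxisomes, rose from 111 and 136 CPM in darkness to 1454 and 1419.7 CPM with light (3.54 ± 0.33, adjusted p = 0.00683), and its relative AOAT2 from 4.84 and 3.78 CPM in darkness to 26.8 and 33.4 CPM with light (2.80 ± 0.25, 0.00648). The glycine decarboxylase P-proteins GLDP1 (4.23 ± 0.60, 0.0170) and GLDP2 (2.15 ± 0.37, 0.0293) split in level after light, at 2839 and 2278 CPM for GLDP1 and 725 and 668 CPM for GLDP2, whose coding sequences are of similar length. Of 21 starch and sucrose genes SBE2.2, a starch branching enzyme (1.56 ± 0.25, 0.0242), and SS4, a starch synthase (1.22 ± 0.25, 0.0483), rose, and the median was 0.24 (10 up and 1 down with the block).

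Of 18 nitrogen and sulfur assimilation genes 3 rose (median 0.62; 10 up and 4 down with the block). NIA2, nitrate reductase, rose from 160.4 and 114 CPM in darkness to 647 and 745 CPM with light (2.34 ± 0.34, adjusted p = 0.0182), and GLU1, plastid glutamate synthase, from 157 and 227 CPM in darkness to 1565 and 1410.5 CPM with light (2.95 ± 0.46, 0.0227). The asparagine synthetase ASN2 rose from 3.77 and 10.7 CPM in darkness to 70.1 and 174 CPM with light (4.07 ± 0.74, 0.0339), whereas ASN1, the copy known for its rise in darkness, had 2494 and 352 CPM in darkness and 697 and 16.2 CPM with light (0.721). In both conditions ASN1 was lower in repeat 2. The 17 dark-induced and sugar-starvation genes had 0 calls in either direction (1 at an unadjusted p under the threshold, 1 down by DESeq2), a median of -0.76, and 1 up and 13 down with the block. In the dark these genes were lower in repeat 2 by a median of 1.65 on the log2 scale, and the 18 listed members summed to 16121 and 4904 CPM in darkness and 8256 and 2101 CPM with light. Of 18 genes of seed oil mobilization PMDH2, a peroxisomal malate dehydrogenase, rose (1.79 ± 0.33, 0.0363) and PCK1 fell, with a median of -0.26 (1 up and 5 down with the block).

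Of 26 Aux/IAA repressors, which are both targets and brakes of auxin signalling, 1 rose and 4 fell, with a median of -0.69 (1 up and 13 down with the block). IAA19 fell from 143 and 187 CPM in darkness to 20.6 and 27.0 CPM with light, IAA29 from 14.0 and 18.3 CPM in darkness to 2.38 and 3.43 CPM with light (-2.47 ± 0.34, adjusted p = 0.0150) and IAA6 from 29.1 and 30.6 CPM in darkness to 5.201 and 2.53 CPM with light (-2.95 ± 0.51, 0.0303). IAA5 changed by -1.78 ± 0.31 (0.0311). IAA28 went the other way, from 6.85 and 6.47 CPM in darkness to 15.4 and 15.3 CPM with light (1.21 ± 0.24, 0.0415). Of 27 genes for auxin synthesis, conjugation and transport 4 fell and 0 rose, with a median of -0.23 (4 up and 10 down with the block). Auxin-conjugating GH3 genes were among them, GH3.3 above, GH3.1 from 7.21 and 7.09 CPM in darkness to 0.983 and 1.00 CPM with light (-2.84 ± 0.31, 0.00862) and BRU6 (AT4G37390, GH3.2) from 38.6 and 11.5 CPM in darkness to 1.81 and 1.62 CPM with light (-3.87 ± 0.79, 0.0465). The remaining one was EIR1 (AT5G57090, PIN2), an auxin exporter of the root.

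Among 23 ethylene and apical hook genes only the ACC synthases ACS5 and ACS8 fell, with a median of -0.72 over the list (0 up and 14 down with the block). ACS8 had 87 and 229 reads in the dark and 5 and 1 after light (adjusted p = 0.0262). HLS1, a hook-forming acetyltransferase homologue, had 18.9 and 29.3 CPM in darkness and 7.23 and 4.14 CPM with light and did not pass (0.113). Of 27 gibberellin genes 1 rose and 3 fell, or 7 up and 7 down with the block. Their median was 0.10 in the fit, -0.15 in repeat 1 and 0.17 in repeat 2. GASA4, a small peptide of gibberellin response, fell from 1259.8 and 1728 CPM in darkness to 189 and 235 CPM with light (-2.82 ± 0.45, 0.0238). GA2OX6, which inactivates gibberellin, fell from 21.6 and 31.7 CPM in darkness to 6.37 and 4.57 CPM with light (-2.28 ± 0.34, 0.0202), and RGL1, a DELLA repressor, from 47.8 and 39.4 CPM in darkness to 21.0 and 19.0 CPM with light. GA3OX2, which makes active gibberellin, was called up on 0 and 3 reads in the dark and 74 and 218 after light (0.0388).

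Among 20 brassinosteroid genes CYP72C1, which lowers brassinosteroid levels, alone fell, from 85.1 and 93.0 CPM in darkness to 25.5 and 18.1 CPM with light (-2.03 ± 0.25, adjusted p = 0.0115), with a list median of -0.38 (2 up and 8 down with the block). Among 31 cytokinin and abscisic acid genes CKX5, which degrades cytokinin, alone fell, from 14.8 and 21.6 CPM in darkness to 3.93 and 5.88 CPM with light (-1.89 ± 0.39, 0.0484). Their median was -0.13 in the fit, 0.18 in repeat 1 and -0.06 in repeat 2, and its sign changed with the block. With the block 10 of them rose and 7 fell.

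Of 21 expansins, which loosen walls, 1 rose and 2 fell (median -0.81; 5 up and 12 down with the block). EXPA11 fell from 101 and 225 CPM in darkness to 16.7 and 13.9 CPM with light, EXLA2 from 51.8 and 59.2 CPM in darkness to 10.2 and 15.0 CPM with light (-2.14 ± 0.26, adjusted p = 0.0113), and EXPB3 rose from 5.78 and 4.26 CPM in darkness to 24.4 and 62.9 CPM with light (3.12 ± 0.54, 0.0291). Of 26 xyloglucan endotransglucosylases 1 rose and 2 fell (median -0.42; 11 up and 10 down with the block). XTH15 fell from 1231 and 1134 CPM in darkness to 115 and 84.7 CPM with light, and XTH19 (-3.90 ± 0.79, 0.0468) fell from unequal dark values, 57.3 and 213 CPM, to 9.77 and 8.36 CPM. XTH16 rose from 58.2 and 40.6 CPM in darkness to 169 and 217 CPM with light (1.97 ± 0.35, 0.0313). Of 25 genes for cellulose synthesis and wall assembly GH9B13 and AT3G26610, a pectin lyase-like gene (-2.15 ± 0.45, 0.0493), fell. With the block 3 rose and 3 fell. The median of this list was 0.06 in the fit, 0.12 in repeat 1 and -0.02 in repeat 2.

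The 20 tested flavonoid genes had a median of 3.42, and 1 was called. UGT78D2, a flavonol glucosyltransferase, rose from 1.78 and 4.71 CPM in darkness to 42.1 and 93.3 CPM with light (4.38 ± 0.76, adjusted p = 0.0298). With the block 17 rose and 2 fell. The repeats were far apart here. The medians were 1.44 in repeat 1 and 3.02 in repeat 2, both under the fitted 3.42. The repeat values carry a prior count of 2, which the fit does not share. Dark levels were higher in repeat 2 by a median of 1.34. TT4, chalcone synthase, had 0.949 and 32.7 CPM in darkness and 70.1 and 626 CPM with light (0.343), and DFR, a later enzyme of the same pathway, had 0 and 17 reads in the dark and 16 and 2135 after light. Of 16 phenylpropanoid and lignin genes 0 were called in edgeR without the block (4 unadjusted, 3 by DESeq2, 9 up with the block), with a median of 0.70. The most abundant, C4H and OMT1, were at 1.19 ± 0.45 and 1.56 ± 0.43. Of 19 glucosinolate and ER body genes 0 were called (3 unadjusted, 1 up and 1 down by DESeq2, 8 up and 2 down with the block), with a median of 0.61. PBP1, a lectin that binds PYK10, had 1447 and 2619 CPM in darkness and 1606 and 3532 CPM with light.

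Of 22 genes for heat shock and the unfolded protein response 4 rose and 0 fell, 20 were fitted higher, and the median was 1.27 (16 up with the block). HSP90.1 rose from 60.5 and 35.9 CPM in darkness to 361 and 176 CPM with light (2.48 ± 0.46, adjusted p = 0.0363), HSP101, a disaggregase, from 26.2 and 27.9 CPM in darkness to 52.7 and 59.5 CPM with light, and the small heat shock protein HSP17.4 from 3.83 and 4.14 CPM in darkness to 12.5 and 10.6 CPM with light (1.54 ± 0.27, 0.0298). SDF2, of protein quality control in the endoplasmic reticulum, changed by 1.23 ± 0.24 (0.0438). Of 27 iron and metal genes OPT3, a phloem transporter (1.08 ± 0.21, 0.0389), and FRO7, the chloroplast ferric reductase (3.28 ± 0.68, 0.0495), rose. VIT1, which loads iron into the vacuole, fell from 81 and 40 reads in the dark to 1 and 0 after light (0.0224). The median of the list was 0.18 (9 up and 2 down with the block).

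Division and ribosome assembly genes had 0 calls in edgeR. The 36 cell cycle and replication genes had a median of -0.04 in the fit, -0.21 in repeat 1 and 0.09 in repeat 2. They had 2 members at an unadjusted p under the threshold, 1 up by DESeq2, and 5 up and 1 down with the block. The most abundant were SIM, an inhibitor of cyclin-dependent kinases (-0.54 ± 0.38, adjusted p = 0.0489 with the block), and CDC2, the kinase CDKA;1 (-0.33 ± 0.25). The 17 ribosome biogenesis genes had a median of 0.16, 0 members at an unadjusted p under the threshold, 0 by DESeq2 and 1 down with the block. NUC-L1, nucleolin, had 145 and 146 CPM in darkness and 167 and 173 CPM with light (0.22 ± 0.22). FIB1, fibrillarin, had 85.1 and 86.7 CPM in darkness and 89.1 and 82.8 CPM with light.

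**Figure D4:**
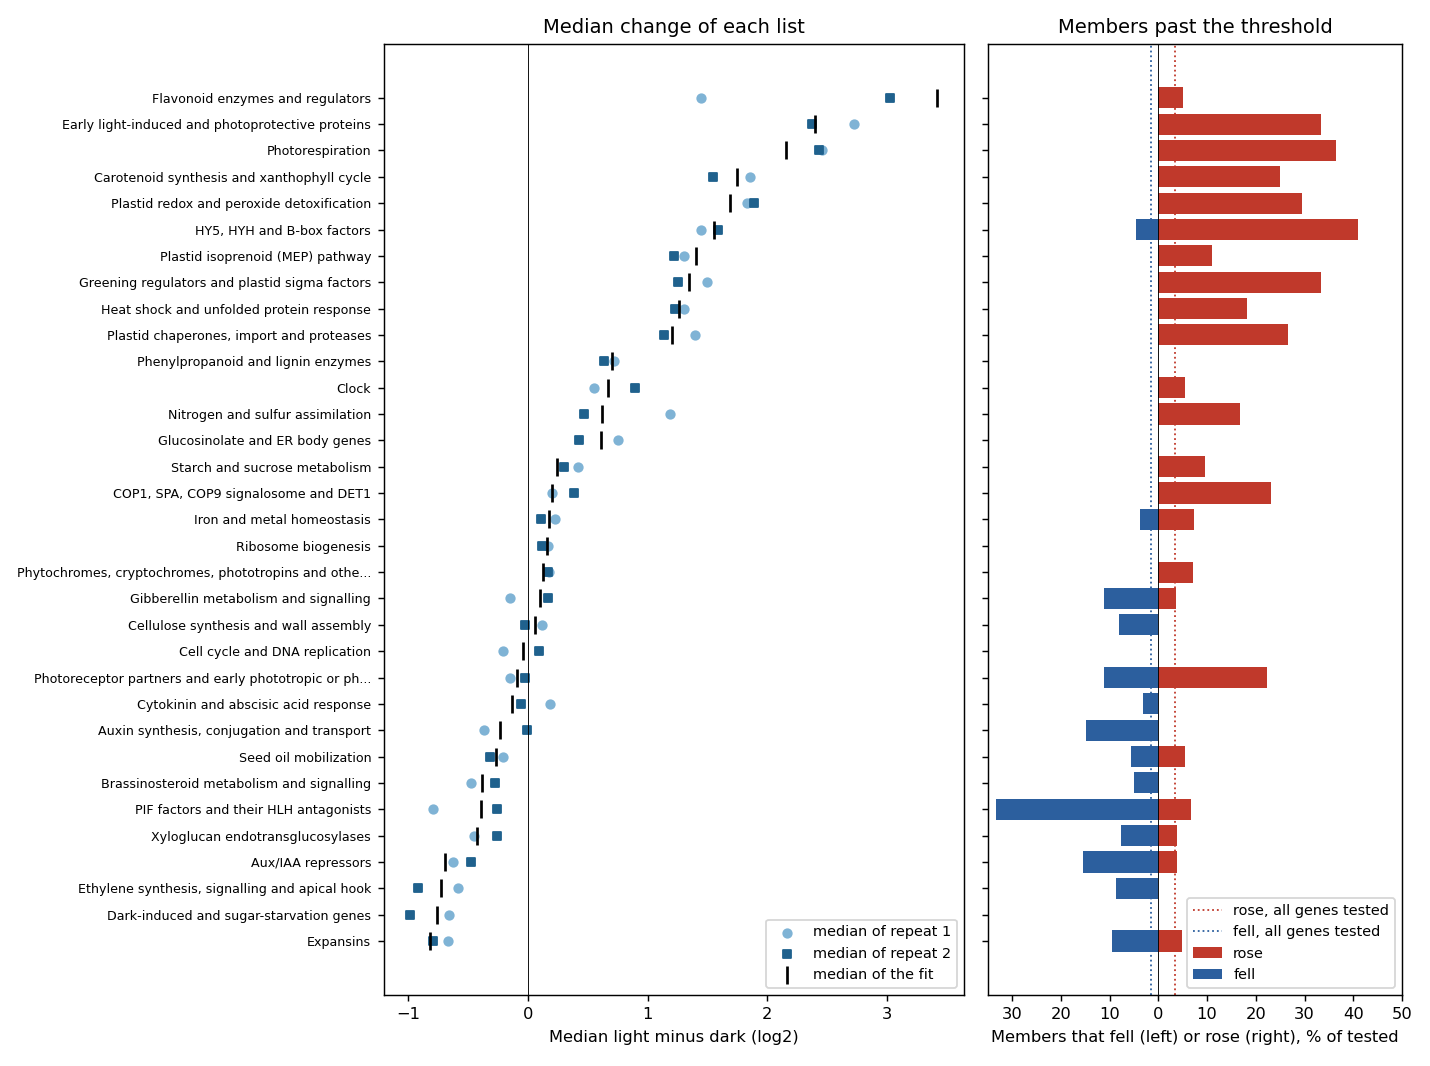
Left, median log2 light minus dark of each of the 33 gene lists in repeat 1 (pale circles), repeat 2 (dark squares) and the fit (black bars). Right, percent of tested members that rose (red) or fell (blue) in edgeR without the block, with dotted lines at 3.34% and 1.44%, the shares over all genes tested.

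Reads in the untranslated regions of the same libraries, which the tests did not use, moved with the coding reads. Of 762 called genes with at least 100 reads in the CDS and in the 3′ region, all 762 moved the same way in the 3′ region in both repeats. The changes differed by a median of 0.19 on the log2 scale, and by 1 or more for 13 genes. Over all 13815 genes with enough reads the median was 0.15, and 38 differed by 1 or more. The share of all genes moving the same way was not counted. In the 5′ region 520 of 521 called genes with enough reads moved with the CDS in both repeats. Across 13815 genes with enough reads, called or not, Pearson's r between the CDS change and the 3′ change was 0.98, as a description of genes from the same libraries.

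The called gene with the largest gap between regions was scpl10, a serine carboxypeptidase-like gene. Its CDS reads went from 292 and 150 in the dark to 1214 and 4063 after light, and its 3′ reads from 0 and 1 to 69 and 269. AT4G16880, a leucine-rich repeat gene, went from 0 and 3 CDS reads to 125 and 210, while its 3′ reads went from 10 and 6 to 110 and 172. CDSP32 had 6 and 3 reads in its 3′ region in the dark and 1068 and 713 after light, a rise larger than in its CDS by 1.51 on the log2 scale. The same difference was 1.44 in UTR1, a nucleotide sugar transporter, and -1.44 in AT4G10150, a RING-finger gene that fell.

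A gene and a locus were picked after their values were seen. PHOT2, the phototropin of strong blue light, had CDS reads of 1449 and 3927 in the dark and 6943 and 11978 after light, but 3′ reads of 366 and 503 and then 492 and 685. Its 5′ reads, 32 and 74 in the dark and 148 and 243 after light, moved as the CDS did. The plastid locus ATCG00270 held more reads before its coding sequence than any other gene in repeat 1, 56281 in the dark and 225355 after light, against 1228 and 2175 in repeat 2. Its CDS reads went from 77526 to 252536 in repeat 1 and from 4615 to 7539 in repeat 2.

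**Figure D5:**
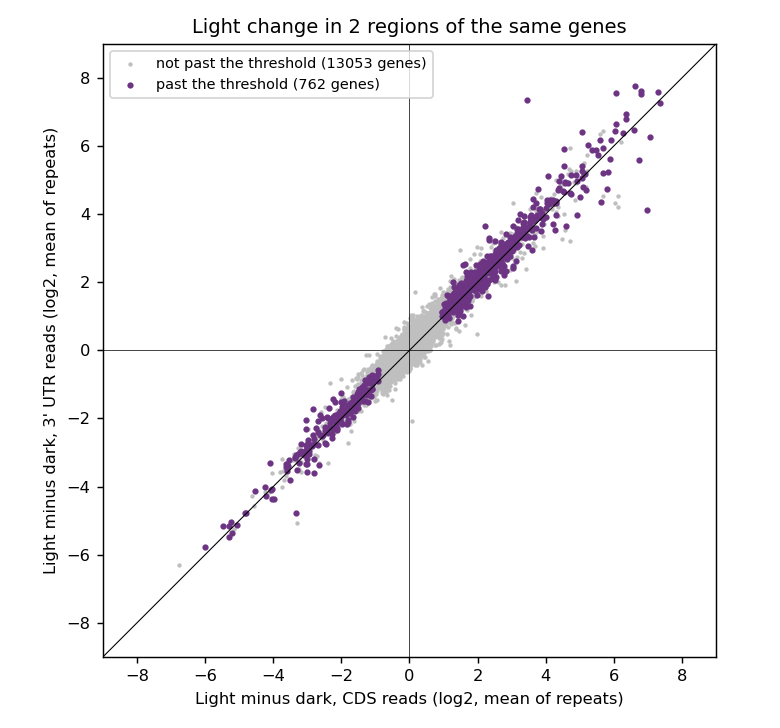
Log2 light minus dark, mean of both repeats, of CDS reads (x axis) and 3′ UTR reads (y axis) for genes with at least 100 reads in each region, with called genes in purple, the others in grey and the line of equal change in black. The 762 called genes all lie where both regions share a direction, and 13 of them differ by 1 or more, against 38 of all 13815 genes shown.

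Levels of tissue markers are given as sums over all listed members, tested or not. Of 10 tested root markers EIR1 fell, from 18.6 and 21.7 CPM in darkness to 5.45 and 5.22 CPM with light (-1.92 ± 0.32, adjusted p = 0.0262), and 9 of 10 were fitted lower, with a median of -0.34 and summed levels of 707 and 684 CPM in darkness and 561 and 519.8 CPM with light. The 5 shoot apex markers had a median of 0.28 and summed to 197 and 202 CPM in darkness and 211 and 221 CPM with light. The 7 stomatal lineage markers had a median of 1.41 and 0 calls (2 unadjusted, 1 up by DESeq2, 5 up with the block), on sums of 14.8 and 26.3 CPM in darkness and 34.9 and 45.9 CPM with light. The 3 epidermis markers summed to 796 and 821 CPM in darkness and 759.6 and 925 CPM with light. The 9 seed reserve genes summed to 31.5 and 5.87 CPM in darkness and 30.4 and 4.96 CPM with light, lower in repeat 2 in both conditions. The 2 pollen markers, which were not tested, summed to 0.0297 and 0.0238 CPM in darkness and 0.159 and 0.143 CPM with light. Whether these levels have a part in the changes above was not tested.

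The ribosome-protected libraries of the same conditions, from the same fit, put 660 of the 662 risen and 283 of the 285 fallen genes on the same side of 0. The share over all genes tested was not counted, so this describes the called genes only. For all genes named here the difference between both light changes missed the threshold in the interaction test, which called 0 of the genes tested. That test was run only without the block, on 2 libraries per group. Its lack of calls therefore does not show that both light changes were equal. In ICL, one of the large losses of mRNA CPM, the fitted changes had opposite signs, -2.07 in mRNA and 1.18 in ribosome-protected reads, and neither passed. Of the 947 called genes 274 overlap an annotated locus on the other strand, as do 5367 of all 19823 tested genes. Whether counting used strand is not stated, and reads of such pairs cannot be told apart. This concerns 40 of the 136 named genes. Among the largest changes and smallest p-values these were AT5G42760, FADA, GRF7, SNRK2.5, DIR1 and AT4G12830. Among the 10 largest gains they were RCA, PYK10, LHB1B2, LHCB3, GLDP1 and LHCA4, and among the 10 largest losses BGAL4 and DELTA-TIP.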

How the data were processed

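The deposited tables give, per gene and library, counts of reads in the coding sequence and in both untranslated regions, per the file headers, with region lengths. The submitters' processing notes name TAIR10. No source used here gives the aligner, the counter or use of strand. Of the columns, 24 were not used.

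Coding counts of all 8 libraries were fitted in edgeR 4.0.16 (R 4.3.3; filterByExpr, TMM, 1 mean per group, two-sided quasi-likelihood test, Benjamini-Hochberg adjustment over 19823 genes, threshold 0.05). Each library held 4617343 to 40972194 coding reads. Alternatives were a replicate block, the 4 mRNA libraries alone, DESeq2 1.42.0, other scalings and filters, coding plus untranslated reads, and leaving out each library. Changes per repeat used log2 CPM with a prior count of 2. The fit was also run on simulated counts, which held no difference between repeats. That run cannot show how the test behaves with repeats that differ as these do.

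The repeats were paired by the number that the labels and the separate tables give. The deviations of the dark and light libraries of a repeat correlated at 0.81 across 19823 genes, although the labels do not say that the number marks a batch.

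Named genes were the 12 largest rises and 12 largest falls of at least 10 CPM, the 8 smallest p-values, the 10 highest mean CPM in each condition and the 10 largest gains and losses of CPM, and, per list, up to 4 called members with the smallest p, called members against the list's main direction, and 2 abundant members where 0 were called. The 5 called genes with the largest gap between coding and 3′ reads completed them. Genes named outside this rule (HY5, BBX14, BBX15, BBX18, LZF1, BBX30, PRE5, IBH1, PORA, PHYA, HLS1, TT4, DFR, PHOT2, AMT1;2, NEET and WRR4) were chosen after their values were seen. The comparison and the lists were chosen with earlier results of these data known.

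Symbols and upstream windows came from RefSeq's TAIR10.1 annotation. Of 26718 matched loci 25851 had a coding length equal to an annotated one. Windows were read from the genome in place of the promoter table that the written rule names, and stop at the gene start. Adjusted p-values of DESeq2 below 0.001 were rounded, which moves no call.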

Additional observations from a re-analysis of the deposited data

How the results depend on the processing

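Against 947 genes called, the replicate block gave 6659, the 4 mRNA libraries alone 0 without and 6716 with the block, and DESeq2 2234. Leaving out 1 library at a time gave 3 to 661 calls. The fits that left out a library also held fewer libraries. The square root of the common dispersion, a measure of the spread between libraries, was 0.39 without and 0.17 with the block. With the 4 mRNA libraries alone it was 0.41 and 0.14. The cause of the differences in calls was not tested. DESeq2 calls were 59.4% rises, against 69.9%. Other scalings gave 860 calls (relative log expression size factors, 63.6% rises) and 672 (library size only), filters 964 and 983, no organelle genes 967, and coding plus untranslated reads 941. Of 136 named genes 111 were called. All 111 stayed called with the block and with DESeq2, 98 with relative log expression factors, 93 with library size only, and 0 with the 4 mRNA libraries without the block. Leaving out a library kept 3 (dark repeat 1) to 87 (ribosome-protected dark repeat 2). Only FADA, AT5G24580 and STH stayed called in each of these 8 fits, and 17 in none: COP1, SPA4, SIG4, CYP97A3, GGPS1, SS4, ASN2, IAA5, RGL1, CKX5, AT3G26610, HSP90.1, HSP101, SDF2, OPT3, FRO7 and scpl10. Of the 25 named genes not called, 16 were called with the block and 4 by DESeq2. Leaving out a library leaves 1 in its group and fewer libraries for the estimate of the spread. Which of these loses the calls was not tested. No sign changed among the named genes that were called. The list medians were less steady. Of 39, markers included, 7 changed sign without dark repeat 1 and 4 without dark repeat 2. Without light repeat 1 the number was 4, and without light repeat 2 it was 5. With the block 1 median changed sign, that of the cytokinin and abscisic acid list. DESeq2 and both other scalings each changed 2, those of cellulose and wall assembly and of the epidermis markers. Depth limits genes with few reads in 1 condition, such as BBX32, GA3OX2, ACS8 and VIT1.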
